A study of Mus musculus with 9 samples.

Results

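The Id genes *Id1*, *Id2* and *Id3* and the E-protein genes *Tcf3*, *Tcf4* and *Tcf12* were followed across 9 RNA-seq libraries of mouse hematopoietic stem cells (HSCs). These 6 genes, of 56748 in the deposited count file, were matched by their gene names. They were chosen on the basis of earlier results from the same 9 libraries, so their differences between groups are a description and not independent evidence. The cells were sorted from bone marrow of female C57BL/6 mice by the stem cell gate of lineage-, Sca-1+, c-Kit+, CD48- and CD150+ staining. Young HSCs (yHSCs) came from mice of 6 to 10 weeks. HSCs of mice of 14 to 16 months (paHSCs) were split by surface P-selectin, the adhesion molecule encoded by *Selp*, into Selp high and Selp low paHSCs. Each of the 3 groups had 3 libraries, the labels give no transgene or treatment, and whether a library pooled several mice is not given in the sources used here.

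E proteins are basic helix-loop-helix (bHLH) transcription factors that bind E-box DNA as dimers. In blood they drive lymphoid genes, and together with TAL1 and GATA factors they take part in stem cell and erythroid complexes. Id proteins carry the dimerization domain without the DNA-binding region, so an E protein bound by an Id protein cannot bind DNA, and bone morphogenetic protein (BMP) signaling through SMADs is a known inducer of the *Id* genes. *Tcf3* encodes E12 and E47, *Tcf4* encodes E2-2 and *Tcf12* encodes HEB. None of them is an HMG-box TCF factor of Wnt signaling, although these share some of the same aliases.

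Upstream sequences are shown for *Id2* and *Id3*, the members whose levels separated the groups below, and for *Tcf3*, the most abundant E-protein gene. Each run is the 250 bases before the RefSeq start, in build GRCm38.p6, read 5′ to 3′ on the strand of the gene. Capitals mark the E-box CANNTG and the GC-rich element GCCGNC, a form bound by SMADs of the BMP branch, on either strand. The windows are chr12:25096093-25096342 (minus strand) for *Id2*, chr4:136143572-136143821 (plus strand) for *Id3* and chr10:80433636-80433885 (minus strand) for *Tcf3*.
Id2: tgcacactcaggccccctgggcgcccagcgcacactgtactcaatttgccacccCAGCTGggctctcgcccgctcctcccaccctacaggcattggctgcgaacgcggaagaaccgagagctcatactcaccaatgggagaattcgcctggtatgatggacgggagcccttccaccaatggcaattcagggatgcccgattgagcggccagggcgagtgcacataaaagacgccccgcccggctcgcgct
Id3: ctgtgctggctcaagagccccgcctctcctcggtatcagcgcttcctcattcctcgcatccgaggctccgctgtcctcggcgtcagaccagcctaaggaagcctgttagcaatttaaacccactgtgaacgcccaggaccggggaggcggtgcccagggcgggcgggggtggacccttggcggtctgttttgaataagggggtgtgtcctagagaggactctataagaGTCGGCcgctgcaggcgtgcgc
Tcf3: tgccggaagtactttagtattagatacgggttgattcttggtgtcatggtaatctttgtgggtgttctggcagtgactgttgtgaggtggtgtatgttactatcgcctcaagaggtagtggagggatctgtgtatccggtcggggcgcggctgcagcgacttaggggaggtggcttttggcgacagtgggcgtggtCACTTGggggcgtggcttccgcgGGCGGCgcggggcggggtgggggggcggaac

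*Id2* held 1 E-box, CAGCTG, beginning 196 bases before its start, and no GCCGNC element. *Id3* held no E-box and 1 GC-rich element, GTCGGC on the strand shown, 22 bases before its start. *Tcf3* held the E-box CACTTG at 54 bases and GGCGGC at 31 bases before its start. Other GC-rich forms bound by SMADs were not searched, so a window without GCCGNC may still hold one. Of 32851 RefSeq upstream windows of the same length, 66.2% held CANNTG and 27.4% held GCCGNC, so such matches were common. The narrower E-box CAGNTG, whose matches are all CANNTG matches as well, was in 44.8% of windows and in that of *Id2*. The N-box CACNAG (36.7% of windows) and TATAAA (12.4%) were also searched on both strands and were in none of the 3 windows shown. RefSeq windows matched 4 of the 6 members, with *Tcf12* as the other one.

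The libraries held 24866975 to 35375310 counts. As a check of the sort, *Selp* was at 264 to 652 CPM (counts per 1000000 counts of the library, after scaling by TMM factors that correct for library composition) in Selp high paHSCs, above all Selp low paHSCs (29.3 to 109) and all yHSCs (20.5 to 30.0). All 8 HSC markers examined, among them *Kit*, *Procr*, *Mecom* and *Hlf*, were detected in all 9 libraries, with summed levels of 594 to 1487 CPM in yHSCs, 440 to 1116 in Selp low and 1047 to 1372 in Selp high paHSCs. The Selp low sums were largely *Ly6a* in replicates 1 and 2 (635 and 879 CPM). Of the 8 markers, 6 were higher in every Selp high than in every Selp low library, with a median log2 fold change of 1.51 over the list. Mean *Hlf* was 53.3 CPM in Selp low paHSCs against 161 in Selp high paHSCs and 279 in yHSCs. Mean *Kit* was 134 against 344 and 448, and mean *Mecom* was 31.8 against 92.2 and 79.7. By edgeR log2 fold change, 5 of the 8 markers were lower and 3 were higher in Selp low paHSCs than in yHSCs. *Slamf1* was among the 3, with means of 56.6 CPM in Selp low paHSCs, 145 in Selp high paHSCs and 15.1 in yHSCs. *Flt3* and *Cd34*, which the study's gate for long-term HSCs excludes at the surface, were higher in every yHSC library than in every paHSC library. Their means were 367 and 733 CPM in yHSCs, 18.5 and 79.3 in Selp low and 6.27 and 75.4 in Selp high paHSCs. The Selp low libraries also differed from each other. Summed over 8 B and plasma cell markers, Selp low replicates 1 and 2 were at 5583 and 105904 CPM and replicate 3 was at 76.5 CPM, against 157 to 270 in yHSCs and 375 to 3640 in Selp high paHSCs. *Cd48*, which the gate excludes at the surface, was at 174 and 309 CPM in Selp low replicates 1 and 2 and at 11.6 to 38.6 CPM in the other 7 libraries. Selp low replicate 3 had the highest neutrophil markers instead, with 212146 CPM summed over 8 genes, where the other libraries had 496 to 64785. The 10 most abundant genes took 44.8% of counts in Selp low replicate 2 and 20.9% in replicate 3.

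*Id3* was the member that differed most between groups. It was at 69.0, 69.9 and 24.4 CPM in Selp low paHSCs, at 12.3, 11.6 and 3.52 CPM in Selp high paHSCs, and at 5.82, 9.36 and 6.34 CPM in yHSCs. Every Selp low library was above every library of the other groups, and the lowest of them was 1.99 times the highest Selp high library and 2.60 times the highest yHSC library. The Selp high and yHSC ranges overlapped. The group means were 54.4 ± 26.0, 9.12 ± 4.86 and 7.18 ± 1.91 CPM (SD, n = 3) in Selp low paHSCs, Selp high paHSCs and yHSCs. *Id3* lies at chr4:135870808-135873066 on the plus strand in mm39, the build of the submitters' processing notes.

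By edgeR's quasi-likelihood test, the *Id3* log2 fold change of Selp high over Selp low paHSCs was -2.59 (SE 0.62, 95% interval -4.05 to -1.12), a level 6.01 times higher in Selp low paHSCs. The unadjusted p of this edgeR fit was 0.00413 and the Benjamini-Hochberg adjusted p over all genes was 0.338, above the threshold of 0.05. DESeq2, the tool of the study, gave an adjusted p of 0.0107 without pairing. With the replicate number as a block, DESeq2 gave 2.24e-16 in a fit that called 10.4% of all genes, and edgeR gave 0.0505. limma with voom quality weights gave 0.120, so the adjusted p of *Id3* depended strongly on the method. For Selp low paHSCs over yHSCs the edgeR log2 fold change was 2.99 (SE 0.49, 95% interval 1.83 to 4.15), or 7.93-fold. Its edgeR p was 0.000527 unadjusted and 0.332 adjusted, the DESeq2 adjusted p was 0.000155, and the range over alternatives was 2.77e-06 to 0.981. Selp high paHSCs and yHSCs differed by 0.32 (95% interval -0.94 to 1.58, edgeR adjusted p = 0.999).

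*Id2*, the most abundant *Id* gene in all 3 groups, was at 134, 164 and 75.8 CPM in Selp low paHSCs, at 71.7, 44.7 and 40.1 CPM in Selp high paHSCs, and at 57.0, 20.5 and 28.8 CPM in yHSCs. All Selp low libraries were the highest, but replicate 3 was above Selp high replicate 1 by 1.06 times, and this order turned when libraries were scaled by their totals alone (59.5 against 78.4 CPM). The means were 125 ± 45.1, 52.2 ± 17.0 and 35.5 ± 19.1 CPM (SD, n = 3) in Selp low paHSCs, Selp high paHSCs and yHSCs. *Id2* lies at chr12:25143798-25147139 on the minus strand in mm39.

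The *Id2* log2 fold change of Selp high over Selp low paHSCs was -1.27 (SE 0.38, 95% interval -2.17 to -0.37), with an edgeR adjusted p of 0.338 and a DESeq2 adjusted p of 0.202. For Selp low paHSCs over yHSCs it was 1.85 (SE 0.50, 95% interval 0.65 to 3.05), or 3.61-fold, with an edgeR adjusted p of 0.332 and a DESeq2 adjusted p of 0.0858. In this comparison limma with voom quality weights gave an adjusted p of 0.0392. With the replicate block, DESeq2 gave 0.0196 and edgeR gave 0.643. The range over alternatives was 0.0196 to 0.981. Selp high paHSCs over yHSCs gave 0.51 (95% interval -0.54 to 1.57, edgeR adjusted p = 0.960).

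**Figure D1:**
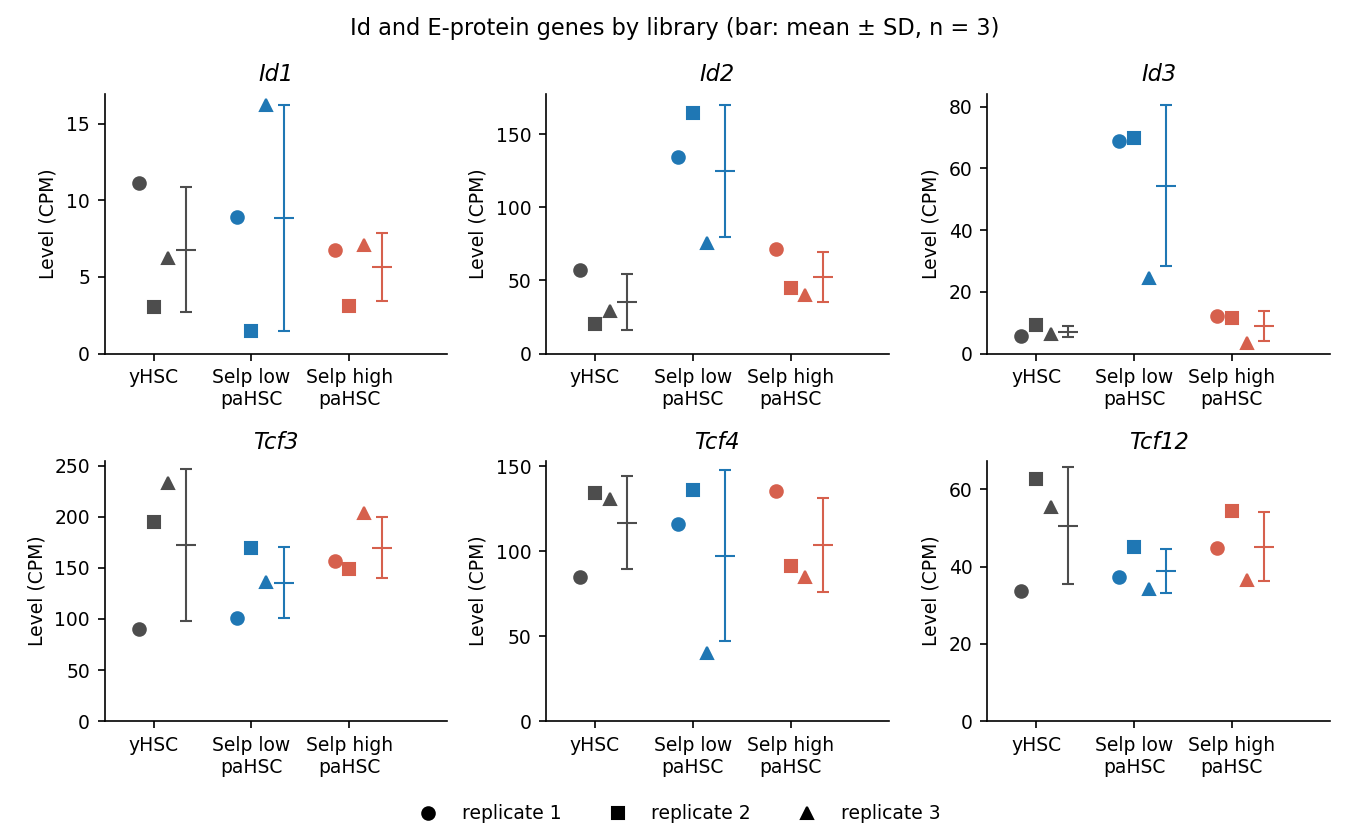
Level of each of the 6 genes in CPM (vertical axes, each starting at 0) in yHSCs and in the Selp low and Selp high groups; symbols are the 3 replicates and the bars beside them are the mean ± SD. For Id3 the Selp low libraries sit between 24.4 and 69.9 CPM, above the other 6, and for the E-protein genes the groups overlap.

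*Id1*, the smallest of the *Id* transcripts in the file with 1160 bases, did not share this pattern. It was at 8.91, 1.45 and 16.2 CPM in Selp low paHSCs, at 6.74, 3.10 and 7.10 CPM in Selp high paHSCs, and at 11.1, 3.04 and 6.21 CPM in yHSCs. All 3 groups overlapped, and Selp low replicates 2 and 3 were the lowest and the highest of the 9 libraries. The edgeR log2 fold change was -0.65 (95% interval -2.55 to 1.24) for the Selp high over the Selp low group and 0.38 (95% interval -1.63 to 2.40) for Selp low paHSCs over yHSCs, so differences of several fold in either direction were not resolved. The first of these estimates was 0.11 without Selp low replicate 3. *Id1* lies at chr2:152578171-152579330 on the plus strand in mm39. *Id4*, the fourth gene of the family and not a member here, was near the floor, with group means of 0.680 to 0.973 CPM.

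*Tcf3* was at 101, 170 and 136 CPM in Selp low paHSCs, at 156, 149 and 204 CPM in Selp high paHSCs, and at 89.8, 195 and 233 CPM in yHSCs. The groups overlapped, and yHSC replicate 1 was the lowest library. The means were 135 ± 34.6, 170 ± 29.8 and 173 ± 74.2 CPM (SD, n = 3), in the same order of groups. The edgeR log2 fold change was 0.32 for the Selp high over the Selp low group (95% interval -0.36 to 0.99, adjusted p = 0.681) and -0.28 for Selp low paHSCs over yHSCs (95% interval -1.19 to 0.62, adjusted p = 0.908). *Tcf3* lies at chr10:80245348-80269481 on the minus strand in mm39.

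*Tcf4*, also known as a regulator of plasmacytoid dendritic cells, was at 116, 136 and 40.3 CPM in Selp low paHSCs, at 135, 91.5 and 84.7 CPM in Selp high paHSCs, and at 85.2, 134 and 131 CPM in yHSCs. Selp low replicate 3 was the lowest of the 9 libraries and the groups overlapped. *Tcf12* was at 37.4, 45.1 and 34.2 CPM in Selp low paHSCs, at 44.7, 54.3 and 36.5 CPM in Selp high paHSCs, and at 33.6, 62.8 and 55.4 CPM in yHSCs, again with overlapping groups. For Selp high over Selp low paHSCs the edgeR log2 fold changes were 0.08 for *Tcf4* (95% interval -1.02 to 1.18) and 0.21 for *Tcf12* (95% interval -0.41 to 0.83). For Selp low paHSCs over yHSCs they were -0.19 (95% interval -1.30 to 0.92) and -0.32 (95% interval -0.997 to 0.359). The *Tcf4* and *Tcf12* loci are long genes that overlap 1 and 11 small genes of the file, each with at most 59 counts in a library, whereas no gene of the file overlaps *Id1*, *Id2*, *Id3* or *Tcf3*. Whether counting used strand is not given in the sources used here.

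Counted together, 0 of the 6 genes passed the edgeR thresholds of an adjusted p of 0.05 and an absolute log2 fold change of 1 in any of the 3 comparisons. Over all genes these thresholds called 0% between the Selp high and Selp low groups, 0.165% for Selp high paHSCs over yHSCs and 0% for Selp low paHSCs over yHSCs. At an unadjusted edgeR p under 0.05, 2 of 6 (*Id2* and *Id3*) were found in both comparisons with Selp low paHSCs, against 0 when Selp high paHSCs were set against yHSCs. Over all genes tested, 12.5% had such a p between the aged groups, 11.3% in Selp low paHSCs over yHSCs and 7.59% in Selp high paHSCs over yHSCs. DESeq2 called 1 of 6, *Id3*, for Selp high over Selp low paHSCs, where it called 2.4% of all genes with an adjusted p. It called 0 of 6 when Selp high paHSCs were compared with yHSCs, against 3.32% of genes, and again *Id3* for Selp low paHSCs over yHSCs, against 2.57%. With the replicate number as a block, DESeq2 called *Id2* as well between the aged groups (adjusted p = 0.00366), in a fit that called 10.4% of all genes, while edgeR with the block called neither (adjusted p = 0.0505 for *Id3* and 0.127 for *Id2*). Every Selp low library was above every Selp high library for 2 of 6 members, against 10.6% of all genes tested, and above every yHSC library for the same 2 members, against 9.59%. The comparisons share libraries, so their counts are not independent of each other.

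**Figure D2:**
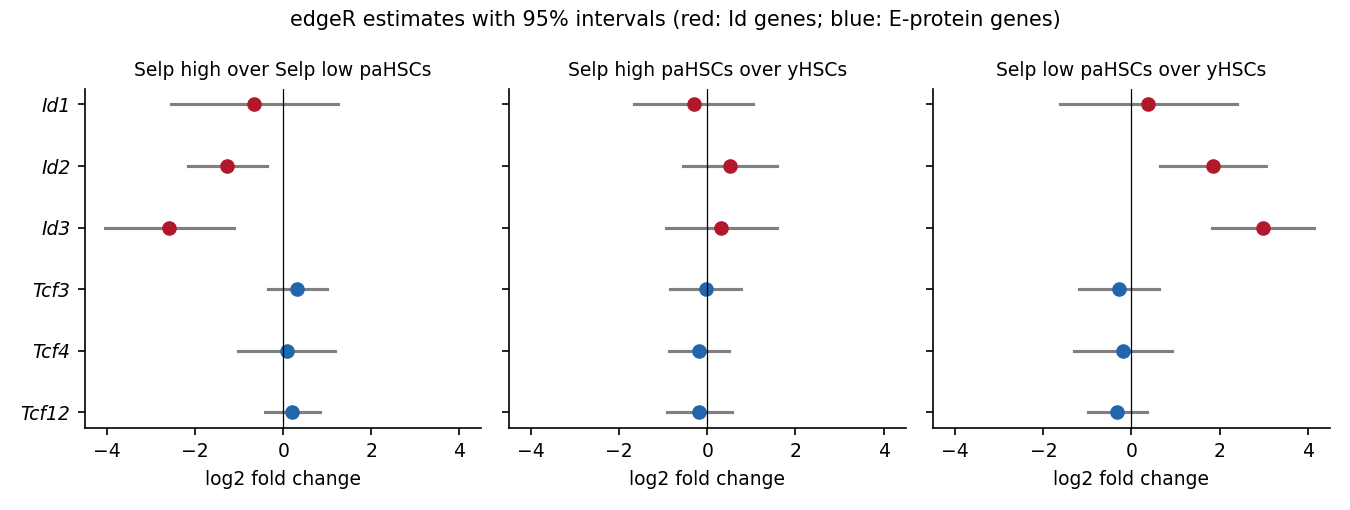
edgeR log2 fold change (horizontal axes) of each gene in the 3 comparisons, with points for the estimate and lines for its 95% interval. The intervals of Id2 and Id3 leave 0 in both comparisons with Selp low paHSCs, before adjustment over all genes, and those of the other genes include 0.

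The Selp low libraries with the highest B-cell markers were also those with the most *Id3* and *Id2*. In bulk RNA a change in the mix of cells and a change per cell cannot be told apart. In Selp low replicate 3, whose summed B and plasma cell markers were the lowest of all 9 libraries, *Id3* was at 24.4 CPM and still above all yHSC and Selp high libraries. That library had the most neutrophil markers. T and NK cell markers summed to 324, 926 and 629 CPM in the 3 Selp low libraries against 72.7 to 121 in the other 6. In Selp low replicate 3 this sum was nearly all *Nkg7* (619 CPM), and the T-cell receptor component *Cd3e* was at 0.487 CPM, against 19.3 and 90.0 CPM in Selp low replicates 1 and 2 and 0.305 to 4.51 CPM elsewhere. The part of these markers in the *Id3* and *Id2* levels was not tested beyond the following values, chosen after seeing the data. Without Selp low replicates 1 and 2, the *Id3* log2 fold change was -1.33 for the Selp high over the Selp low group and 1.78 for Selp low paHSCs over yHSCs, with edgeR adjusted p of 1.000 and 0.681. These fits leave 1 Selp low library, which is assumed to vary like the libraries of the other group, so their p-values say little about either gene. For *Id2* the corresponding values were -0.46 and 1.09. With the summed B-cell marker level as a covariate, *Id3* gave -2.19 and 2.19 and *Id2* gave -1.02 and 1.33, with edgeR adjusted p of at least 0.444.

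Markers of plasmacytoid dendritic cells, in which *Tcf4* is highly expressed, summed to 1124 and 1678 CPM in Selp low replicates 1 and 2 and to 8.09 to 82.5 CPM elsewhere. Most of it was *Ly6d*, also a B-lineage gene, at 1084 and 1654 CPM. Of the other 5 markers, *Pacsin1* was at 8.55 and 8.10 CPM in these libraries against 0.337 to 3.60 elsewhere, *Ccr9* was highest in replicate 1 (30.1 CPM) and *Cox6a2* in replicate 2 (6.32 CPM). *Siglech* was at 1.05 and 3.43 CPM in them and reached 8.52 CPM in Selp high paHSCs, and *Klk1* was at most 1.65 CPM in all 9 libraries. The part of these markers in the *Tcf4* level was not tested.

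**Figure D3:**
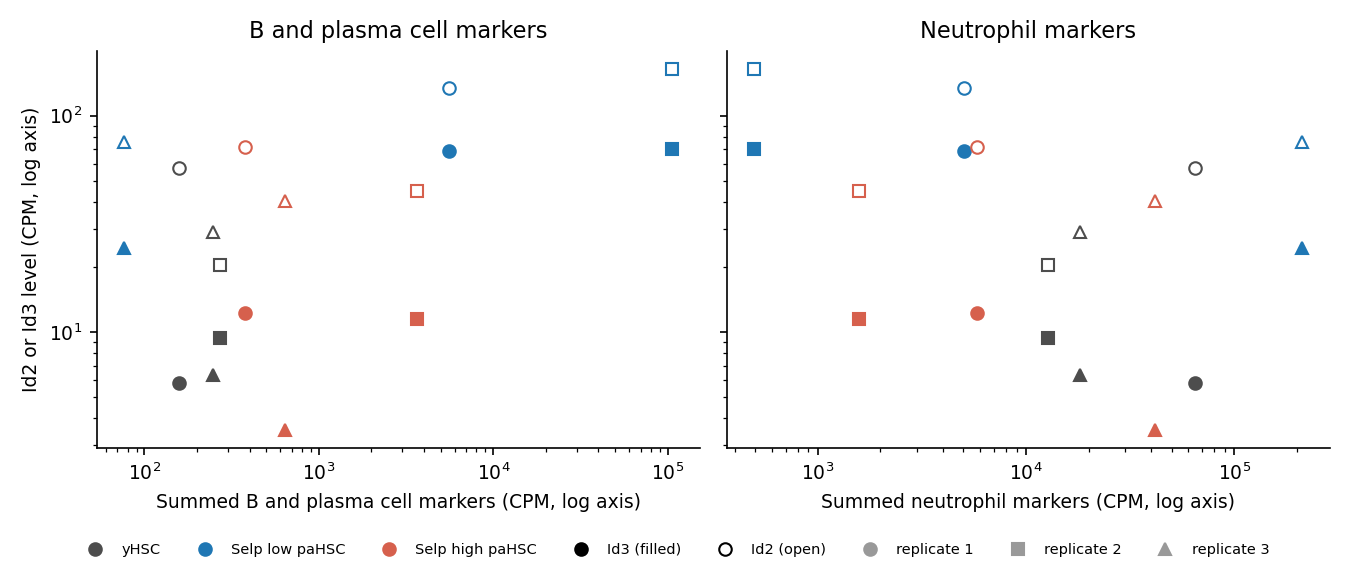
Id3 (filled) and Id2 (open) in CPM against the summed CPM of 8 B and plasma cell markers (left) and 8 neutrophil markers (right), 1 point per library, all axes logarithmic. Selp low replicate 3 (blue triangle) has the lowest B-cell markers, the highest neutrophil markers and 24.4 CPM of Id3.

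Levels of different genes were compared per length, as FPKM (CPM per kilobase of the gene length in the file). *Tcf3* led in yHSCs (42.7 ± 18.4 FPKM) and in Selp high paHSCs (42.0 ± 7.37 FPKM), followed by *Id2* (14.5 ± 7.85 and 21.4 ± 6.99 FPKM). In Selp low paHSCs the order began with *Id2* (51.2 ± 18.5 FPKM), *Tcf3* (33.5 ± 8.56 FPKM) and *Id3* (30.4 ± 14.5 FPKM), whose ranges overlapped. In Selp high paHSCs *Id3* was at 5.09 ± 2.71 FPKM, and there the ranges of *Tcf3*, *Id2* and *Id3* did not overlap. All other neighbours in the order overlapped, in each group. *Id1*, *Tcf4* and *Tcf12* were between 2.50 and 7.63 FPKM on average in every group (n = 3 each).

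The summed level of the 3 *Id* genes was then set against that of the 3 E-protein genes within each library. The ratio was 3.21, 2.16 and 1.57 in the Selp low libraries, 0.903, 0.628 and 0.439 in the Selp high libraries, and 1.32, 0.284 and 0.314 in yHSCs. Per length it was above 1 in all Selp low libraries and in yHSC replicate 1, but from CPM, without gene length, it was below 1 in all 9 libraries (log2 ratios of -0.26, -0.57 and -0.86 in Selp low paHSCs and -3.57 to -1.50 in the other 6). On either scale every Selp low library was above every other library. The means were 2.32 ± 0.833, 0.657 ± 0.233 and 0.638 ± 0.588 (SD, n = 3). The wide yHSC spread came from replicate 1. That library had the lowest HSC marker sum of the yHSCs (594 CPM against 1249 and 1487 in replicates 2 and 3). It also had their highest neutrophil sum (64785 CPM against 12687 and 18198). The part of these markers in its ratio was not tested. The *Id* sum was 89.2 ± 26.7 FPKM in Selp low paHSCs against 31.4 ± 9.39 in Selp high paHSCs and 24.4 ± 10.5 in yHSCs, and the E-protein sum was 39.6 ± 9.37 FPKM against 48.7 ± 6.39 and 50.2 ± 20.2. The E-protein sums overlapped between groups. *Id3* made up 32.5% of the *Id* sum in Selp low paHSCs, 15.9% in Selp high paHSCs and 19.4% in yHSCs. *Tcf3* made up 84.2% to 85.9% of the E-protein sum per length. This share depended on the gene lengths in the file, 4039 bases for *Tcf3*, 27382 for *Tcf4* and 15529 for *Tcf12*. By CPM the yHSC means of these genes were 173, 117 and 50.6. In Selp low replicate 1, *Tcf4* was above *Tcf3* by CPM (115.8 against 100.5). The ratio is a description with no test, because it is built from the chosen genes, and it concerns RNA and not protein.

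**Figure D4:**
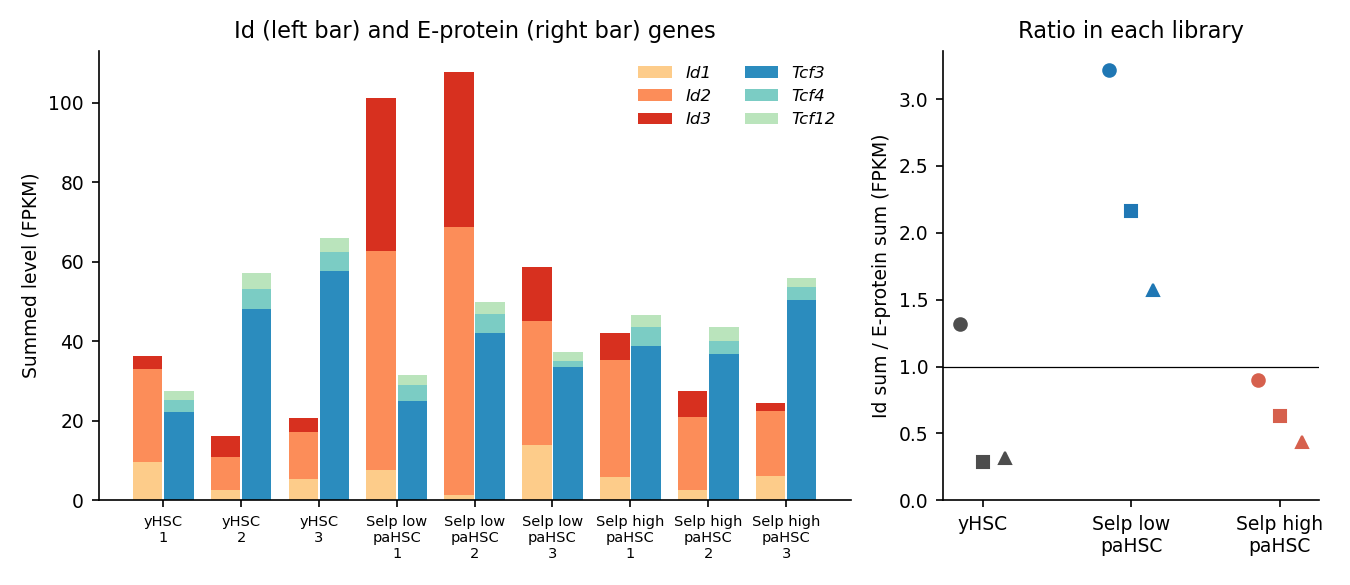
Left, summed FPKM of the Id genes (left bar) and the E-protein genes (right bar) in each of the 9 libraries, stacked by gene; right, the ratio of the sums in each library, with a line at 1. Selp low libraries have ratios of 1.57 to 3.21 and Selp high libraries of 0.439 to 0.903.

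Genes around the family were examined in 3 lists. Of 20 BMP and SMAD genes, which act upstream of the *Id* genes, 18 were tested and 0 were called by edgeR in any comparison, where it called at most 0.165% of all genes. Their median log2 fold change was 0.49 for the Selp high over the Selp low group, -0.46 for Selp high paHSCs over yHSCs and -0.68 for Selp low paHSCs over yHSCs, beside -0.11, -0.03 and 0.08 over all genes tested. The list mixes activating genes with inhibitors such as *Smad6* and *Smad7*, so its median gives no direction of BMP signaling. *Bmpr1a*, a BMP type I receptor, was at 8.32, 5.20 and 17.4 CPM in Selp low paHSCs, at 8.55, 12.4 and 10.7 CPM in Selp high paHSCs and at 3.22, 1.72 and 1.78 CPM in yHSCs. It was thus above all yHSC libraries in both aged groups, with log2 fold changes of 2.197 and 2.214 (edgeR adjusted p = 0.165 for Selp high and 0.332 for Selp low paHSCs). For Selp high over Selp low paHSCs the lowest p was that of *Eng*, which encodes a co-receptor of BMP9 and TGF-beta, with a log2 fold change of 1.70 (edgeR adjusted p = 0.338). DESeq2 called *Bmp4* and *Bmpr1a* higher and *Smad7* lower in Selp high paHSCs than in yHSCs, where it called 3.32% of all genes. It called *Bmpr1a* higher and *Acvr2b* and *Smad6* lower in Selp low paHSCs than in yHSCs, where it called 2.57% of all genes. *Smad6* and *Smad7* encode inhibitory SMADs. Between the aged groups DESeq2 called none of the list, against 2.4% of all genes. With the replicate block, where it called 10.4% of all genes, DESeq2 called *Eng* (adjusted p = 3.70e-07) and *Bmp4* (0.000187) higher in Selp high paHSCs. It called *Smad7* lower there (means of 5.87 against 12.0 CPM). *Bmp4* was at 31.7, 7.19 and 5.53 CPM in Selp high paHSCs and reached 6.42 CPM in Selp low paHSCs, so these groups overlapped.

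Of 12 partners of E proteins in stem cell complexes, 11 were tested and 0 were called by edgeR, which called at most 0.165% of all genes in any comparison. DESeq2 without the replicate block also called 0 of the 11, against 2.4%, 3.32% and 2.57% of all genes in the same order of comparisons. The medians of the 11 genes were 0.25, 0.03 and -0.24 in that order. *Gata2*, a stem cell transcription factor, was at 409, 449 and 409 CPM in Selp high paHSCs, at 147, 189 and 231 CPM in Selp low paHSCs and at 108, 264 and 329 CPM in yHSCs. All Selp high libraries were the highest (log2 fold change over Selp low paHSCs of 1.15, edgeR adjusted p = 0.338). *Tal1*, whose product dimerizes with E proteins, had a log2 fold change of 1.26 in the same comparison (edgeR adjusted p = 0.338). DESeq2 with the replicate block, which called 10.4% of all genes there, called *Gata2* (adjusted p = 0.000898), *Tal1* (0.00120) and the corepressor gene *Cbfa2t3* (0.00157), whereas edgeR with the block called 0 of the 11.

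Of 22 genes listed as targets of E proteins in lymphoid cells, 21 were tested and 0 were called by edgeR, which called at most 0.165% of all genes in any comparison. None of the 21 had every Selp low library above every Selp high library, against 10.6% of all genes tested. Their medians were -1.95 for the Selp high over the Selp low group, -0.31 for Selp high paHSCs over yHSCs and 0.86 for Selp low paHSCs over yHSCs. DESeq2 called *Cd3e*, *Cd79a* and *Cd79b* higher in the Selp low than in the Selp high group, where it called 2.4% of all genes. With the replicate block these calls were lost (DESeq2 adjusted p = 0.189, 0.191 and 0.212). Without the block, DESeq2 called the same 3 genes, *Pax5* and *Pou2af1* higher in Selp low paHSCs than in yHSCs, against 2.57% of all genes. It called *Gfi1* and *Hes1* lower in Selp high paHSCs than in yHSCs, against 3.32% of all genes. *Cd3e*, *Cd79a* and *Cd79b* encode receptor components of T and B cells. *Cd79a*, *Cd79b* and *Pax5* are also among the B-cell markers above, and *Cd3e* is among the T and NK cell markers. *Cd79a* was at 2494, 4243 and 8.73 CPM in the 3 Selp low libraries, so that the third was below all yHSC libraries (19.4 to 85.1) and all Selp high libraries (46.4 to 178). *Dntt*, the terminal transferase of early lymphoid progenitors, was at 9.37, 2.96 and 6.11 CPM in Selp low paHSCs, at 2.89, 14.4 and 2.55 CPM in Selp high paHSCs and at 23.9, 77.0 and 83.7 CPM in yHSCs. Both aged groups were below all yHSC libraries, with log2 fold changes of -3.21 for Selp high (edgeR adjusted p = 0.296) and -3.25 for Selp low paHSCs (edgeR adjusted p = 0.332), and DESeq2 called both.

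**Figure D5:**
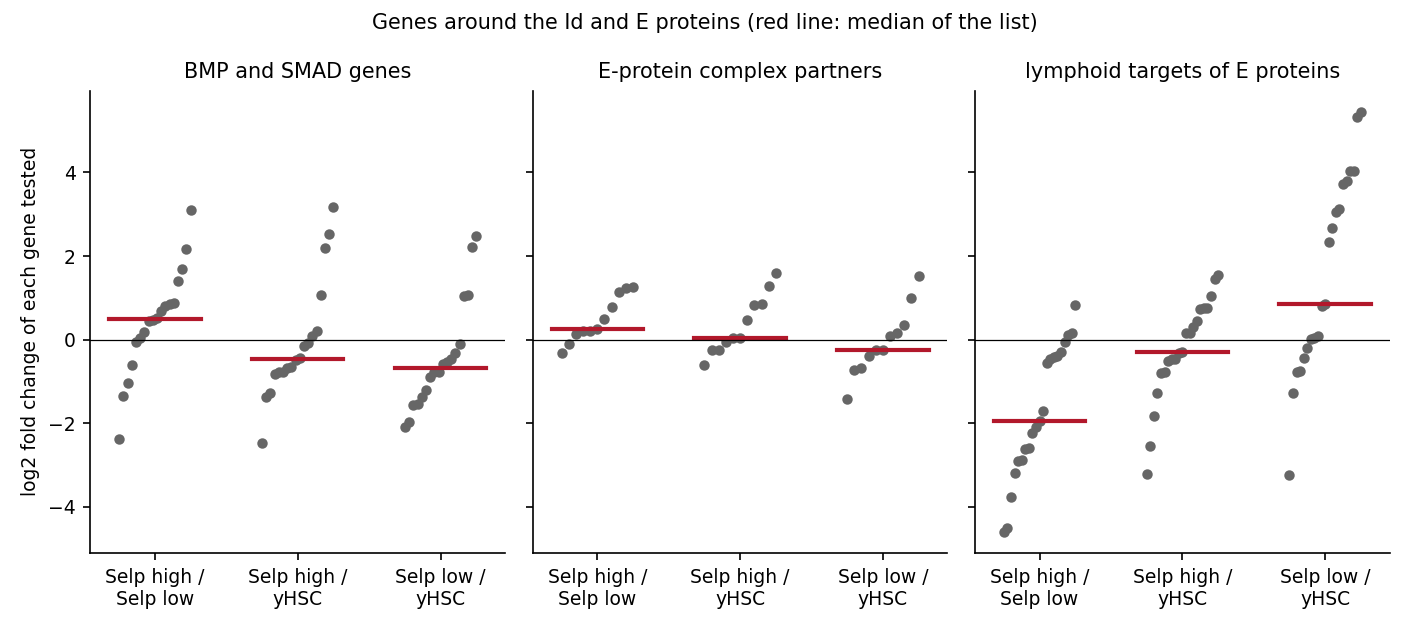
edgeR log2 fold change (vertical axis) of each tested gene of the BMP and SMAD, E-protein partner and lymphoid target lists in the 3 comparisons, sorted within each list, with the median as a red line. The lymphoid list has the widest spread, with a median of -1.95 between the aged groups.

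Of the 107 genes that the file assigns to the bHLH family, 57 were tested for the Selp high over the Selp low group and 55 for Selp low paHSCs over yHSCs. The members were chosen from results of these same libraries, so their ranks are a description alone. By edgeR p, *Id3* ranked 2 and *Id2* ranked 3 in the first, behind *Mycn*, and *Id3* ranked 1 and *Id2* ranked 3 in the second. For Selp high paHSCs over yHSCs, with 56 tested, *Id2* ranked 22 and *Id3* ranked 39.

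For each member the most similar profiles were taken as the protein-coding genes with the smallest mean absolute difference of centred log2 CPM over the 9 libraries, among 15767 genes. For *Id2* these were *Fcgr2b* (0.23), an inhibitory Fc receptor of B and myeloid cells, and *Arpc5l* (0.25). For *Id3* they were *Adm* (0.49) and *Chchd10* (0.53). Such differences grow with the spread of the member, whose SD of log2 CPM was 1.47 for *Id3* and 0.97 for *Id2*. They are therefore not compared between members. *Adm* was near the floor in yHSCs and Selp high paHSCs, with means of 0.545 and 0.712 CPM. *Pnp2* (0.22) was nearest to *Id1*, *Sec31a* (0.09) to *Tcf3*, *Atat1* (0.14) to *Tcf4* and *Efr3a* (0.09) to *Tcf12*.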

How the data were processed

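RNA was amplified from sorted HSCs with a low-input kit. The authors trimmed reads with fastp, aligned them with HISAT2 2.2.1 and made the deposited raw counts per gene with featureCounts 2.0.6 in mm39, per the labels and the study's methods. No source used here gives the annotation release or the strand setting. The members and gene lists were chosen with earlier results of these data known. Ages were taken from the study's methods. Named genes were all members, *Id4*, the genes of each list past the thresholds or otherwise up to 4 of lowest p, and the 2 nearest profiles of each member.

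Each pair of groups was fitted in edgeR 4.0.16 (R 4.3.3) with TMM factors, filterByExpr and the quasi-likelihood test in its legacy setting, and p-values were adjusted by Benjamini-Hochberg over all genes. The p-values measure the spread between these libraries. DESeq2 1.42.0 was run on all genes, with its filtering target set to the threshold of 0.05. Before this setting was kept, DESeq2 had also been run on the genes that edgeR tested and with its default filtering target of 0.1, and all 3 are reported as alternatives. limma 3.58.1 was used with voom quality weights. Levels are CPM with TMM factors over all 9 libraries. Other alternatives covered scaling, low-count filters, the replicate block and leaving out libraries. Scripts were tested on simulated data. Libraries with the same number deviated together in Selp high and Selp low paHSCs (correlations of 0.350, 0.381 and 0.405). In the comparisons with yHSCs they did not (-0.197 to 0.103). A pairing by number was thus seen between the aged groups alone. The main fits used no pairing in any comparison, and the replicate block was run as an alternative in all 3.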

Additional observations from a re-analysis of the deposited data

How the results depend on the processing

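Of the 6 genes, edgeR called 0 in each comparison. For Selp high over Selp low paHSCs the count was 1 without the low-count filter, 1 by DESeq2, 1 by DESeq2 with its default filtering target, 1 by DESeq2 on the genes that edgeR tested and 2 by DESeq2 with the replicate block. For Selp low paHSCs over yHSCs these counts were 1, 1, 1, 2 and 2, limma with voom quality weights called 2, and leaving out libraries gave 0 to 1, the 1 being *Id3* without Selp low replicate 3 (edgeR adjusted p = 0.0228). Over all genes, edgeR without the low-count filter called 0.443% between the aged groups and 0.836% for Selp low paHSCs over yHSCs, and in the latter voom called 2.11% and edgeR without Selp low replicate 3 called 0.534%. The filtering choice in DESeq2 was revisited after the data were seen, and it decided the call of *Id2* in Selp low paHSCs over yHSCs (adjusted p = 0.0858, 0.0784 and 0.0229 by DESeq2 on all genes, with its default target, and on the genes that edgeR tested). Over all genes, DESeq2 called 599, 589 and 807 in these 3 settings for Selp high over Selp low paHSCs, 607, 596 and 597 for Selp high paHSCs over yHSCs, and 514, 517 and 896 for Selp low paHSCs over yHSCs. With the replicate block DESeq2 called 2188, 641 and 417 genes (10.4%, 3.77% and 2.58%) in the 3 comparisons. The replicate block in edgeR changed no call of the 6 genes. The cause of these differences was not tested.

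The direction of *Id2* was kept in all 68 of its alternative fits, and that of *Id3* in all but 1, voom for Selp high paHSCs over yHSCs (-0.27). Small estimates turned sign. For Selp high over Selp low paHSCs, *Id1* was 0.082 by voom and -1.11 to 0.11 when libraries were left out, and *Tcf4* was -0.0002 with upper-quartile factors, -0.25 by voom, -0.0017 with protein-coding genes alone and -0.29 to 0.41 when single libraries were left out. For Selp high paHSCs over yHSCs, *Id1* was 0.14 by voom, 0.68 with the B-cell covariate and -0.64 to 0.30 when libraries were left out, *Tcf3* was 0.04 with the replicate block, 0.026 by DESeq2 with the block and -0.34 to 0.18 when libraries were left out, and *Tcf12* was -0.39 to 0.035 when libraries were left out. For Selp low paHSCs over yHSCs, *Id1* was -0.025 with library totals alone and -0.38 to 0.95 when libraries were left out, and *Tcf4* was -0.58 to 0.11 when single libraries were left out. Without both Selp low replicates 1 and 2, *Tcf4* was 1.45 for the Selp high over the Selp low group and -1.53 for Selp low paHSCs over yHSCs, resting on replicate 3 alone. With library totals alone, the log2 gap of *Id2* between the lowest Selp low library and the highest of the other group was -0.40 for Selp high paHSCs and -0.19 for yHSCs. The log2 ratio of summed *Id* to summed E-protein FPKM was 0.36 for Selp high paHSCs over yHSCs and -0.031 to 1.07 when libraries were left out, -1.82 (-2.08 to -1.55) for Selp high over Selp low paHSCs and 2.18 (1.79 to 2.89) for Selp low paHSCs over yHSCs.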
